A study of Mus musculus and Homo sapiens with 17 samples.

Results

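S100 genes encode small calcium-binding proteins, and the 10 described here were the mouse genes S100a3, S100a4, S100a6, S100a7a, S100a8, S100a9, S100a10, S100a11, S100a14 and S100a16 with their human counterparts. They were taken by gene name from the deposited tables, with the human name in capitals and S100A7 as the counterpart of S100a7a. The set was chosen with earlier results of these data known. All 10 were found among 54532 named mouse features and among 58735 named human features. All 10 also passed the filter on low counts, which left 22371 mouse genes and 18090 human genes to be tested. The study asked what loss of DUSP1, a phosphatase that switches off MAP kinases, does to cutaneous squamous cell carcinoma (SCC). The mouse tissue came from C57BL/6-129 animals, all treated with DMBA, a carcinogen, and TPA, a tumour promoter. From wild-type (WT) mice there were 3 skin and 3 SCC libraries. From mice labelled as Dusp1 knockout (KO) there were 3 papilloma and 2 SCC libraries. The human libraries came from A431, an established squamous carcinoma line, 3 with a guide against Tomato as control and 3 with a guide against DUSP1. A431 cells of both kinds were placed into mouse skin (100000 cells), grown for 3 weeks and freed of mouse cells before RNA was taken. The labels do not say how the Dusp1 allele was made, whether the A431 cells were 1 clone, or whether replicate libraries are separate animals or tumours. The p-values then reflect only how far replicate libraries differ, which may be technical.

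An S100 protein holds a pair of calcium-binding EF-hand motifs and works mostly as a dimer, binding target proteins inside the cell when calcium rises. Some members also leave the cell and act as alarm signals on receptors such as Tlr4 and Ager (RAGE). In skin the family is known for the pair S100a8 and S100a9, which form calprotectin and are made by neutrophils and by keratinocytes of inflamed or thickened epidermis. Most S100 genes lie in the epidermal differentiation complex, the gene cluster that also holds the genes of the cornified envelope.

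Depth was 34.4 to 47.9 M (1e6) counts for mouse and 41.2 to 53.5 M for A431, and the biological coefficient of variation of a typical gene was 36.6% in mouse and 6.11% in A431. Levels are given as counts per 1e6 counts (CPM) of the scaled library size, as mean ± SD over libraries. Keratinocytes are the labelled cell type, but the mouse RNA came from whole sections: the summed level of 10 skeletal muscle genes was 7137 to 8450 CPM in WT skin and at most 150.7 CPM in the tumour libraries. Keratinocytes were present in all: 10 basal keratinocyte genes summed to 6943 to 14812 CPM in WT skin, 36406 to 59139 CPM in the mouse tumours and 49686 to 54410 CPM in A431. In bulk tissue, fewer cells of a type and less RNA per cell cannot be told apart. Libraries also differed in sex-linked counts, with 6624 and 9552 counts of 4 Y-linked genes in WT skin 1 and 2, 7 in WT skin 3, 4779 in KO SCC 2 and 0 in the other 7 mouse libraries. Dusp1 was not lower in the libraries labelled KO: it stood at 74.5 ± 8.63 CPM in WT SCC (n = 3), 116 ± 11.2 CPM in KO papilloma (n = 3) and 157 ± 24.8 CPM in KO SCC (n = 2), with an adjusted p of 0.0283 for KO SCC against WT SCC (edgeR). Counts per gene do not show which part of Dusp1 was read, so each mouse KO group is a group by its label. In A431, DUSP1 fell from 474 ± 9.46 to 73.8 ± 3.10 CPM (log2 fold change -2.68 ± 0.05 SE, adjusted p = 4.89e-17, edgeR, n = 3 against 3).

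All 10 S100 genes lie on mouse chromosome 3 within 3.04 Mb (GRCm38, GENCODE M21). The run begins with S100a14 at chr3:90526856-90528837 and S100a16 at chr3:90537254-90543151, followed by S100a3, S100a4, S100a6, S100a7a, S100a8 and S100a9. S100a11 and S100a10 stand apart, at chr3:93520488-93526287 and chr3:93555080-93564643, beyond a gap of 2824.8 kb. S100a3 and S100a4 are neighbours that share exon sequence on the same strand with the annotated gene Gm42674, 20.2% of the longest coding transcript of S100a3 and 60.6% of that of S100a4. How reads in shared exons were counted is stated in none of the sources, so counts of S100a3 and S100a4 are less certain than those of the other 8 genes.

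RefSeq promoter sequence (GRCm38.p6) was found for 8 of the 10 genes, not for S100a10 or S100a14, as the 250 bases before each of 12 start sites. These 4 are shown because the results turn on the genes behind them: the calprotectin pair, the S100 gene that differed between KO SCC and WT SCC, and the S100 gene with the smallest p between WT SCC and skin. Capitals mark a match to 1 of 3 short motifs, and everything else is in lower case.

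S100a8, chr3:90668821-90669070, plus strand: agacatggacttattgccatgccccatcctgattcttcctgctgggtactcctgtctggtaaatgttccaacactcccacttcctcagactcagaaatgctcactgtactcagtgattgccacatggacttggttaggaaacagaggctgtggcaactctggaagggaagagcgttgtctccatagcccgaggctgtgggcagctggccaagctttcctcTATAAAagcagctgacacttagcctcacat
S100a9, chr3:90695722-90695971, minus strand: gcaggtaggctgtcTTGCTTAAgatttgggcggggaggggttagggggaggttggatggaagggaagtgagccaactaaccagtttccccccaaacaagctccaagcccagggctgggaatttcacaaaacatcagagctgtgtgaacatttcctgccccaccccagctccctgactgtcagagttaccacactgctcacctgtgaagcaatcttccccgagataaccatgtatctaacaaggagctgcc
S100a7a, chr3:90654052-90654301, plus strand: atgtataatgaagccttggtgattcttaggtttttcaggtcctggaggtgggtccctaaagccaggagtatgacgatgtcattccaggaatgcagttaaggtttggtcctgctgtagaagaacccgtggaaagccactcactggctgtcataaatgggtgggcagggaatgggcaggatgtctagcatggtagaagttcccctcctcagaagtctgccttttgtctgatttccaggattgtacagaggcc
S100a11, chr3:93520246-93520495, plus strand: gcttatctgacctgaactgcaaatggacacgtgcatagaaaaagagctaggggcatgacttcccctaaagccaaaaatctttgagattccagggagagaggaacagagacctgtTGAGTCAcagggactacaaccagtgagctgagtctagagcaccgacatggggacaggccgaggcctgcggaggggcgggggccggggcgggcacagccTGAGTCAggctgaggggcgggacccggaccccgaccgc

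The AP-1 motif TGANTCA, which reads alike on both strands, occurs in S100a11 at 136 and at 38 bases before the start, against 6.75% of 32851 mouse promoter windows of the same length that hold it. AP-1 is the family of Fos and Jun factors on which MAP kinase signals converge. The C/EBP motif TTGCNNAA, searched on both strands, occurs in S100a9 at 236 bases before the start, and 9.56% of windows hold it. The TATA box TATAAA, also searched on both strands, occurs in S100a8 at 30 bases before the start, and 12.4% of windows hold it. The 3 motifs do not overlap in the windows shown. Of the 8 genes with a window, 2 held an AP-1 match (S100a11 and S100a16), 1 a C/EBP match (S100a9) and 3 a TATA match (S100a8, S100a4 and S100a3). S100a3 had 4 windows and S100a16 had 2, and each gene held its match in 1 of them. These counts are per gene and the shares above are per window, so the 2 are not directly comparable. No match was found in the S100a7a window. That window lies before the RefSeq start but inside the gene as GENCODE annotates it, from chr3:90654017. The bases before the GENCODE start were not searched. A match is a run of letters, not a site shown to be bound.

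The 10 genes together gave 2603 to 3240 CPM per library in WT skin, 5328 to 6357 in WT SCC, 6115 to 8161 in KO papilloma and 7364 to 8445 in KO SCC. Skin lay below every tumour library, and both KO SCC libraries lay above every WT SCC library. In A431 the sum was 4343 to 4709 CPM in control and 4329 to 4484 CPM in DUSP1 KO, and those groups overlapped. S100a8 and S100a9 made up 1.88 to 22.6% of the sum in WT skin, 11.2 to 15.2% in WT SCC and 18.5 to 40.7% in KO papilloma. In KO SCC their share was 13.96% and 25.5%, the first of which lay within the WT SCC range.

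**Figure D1:**
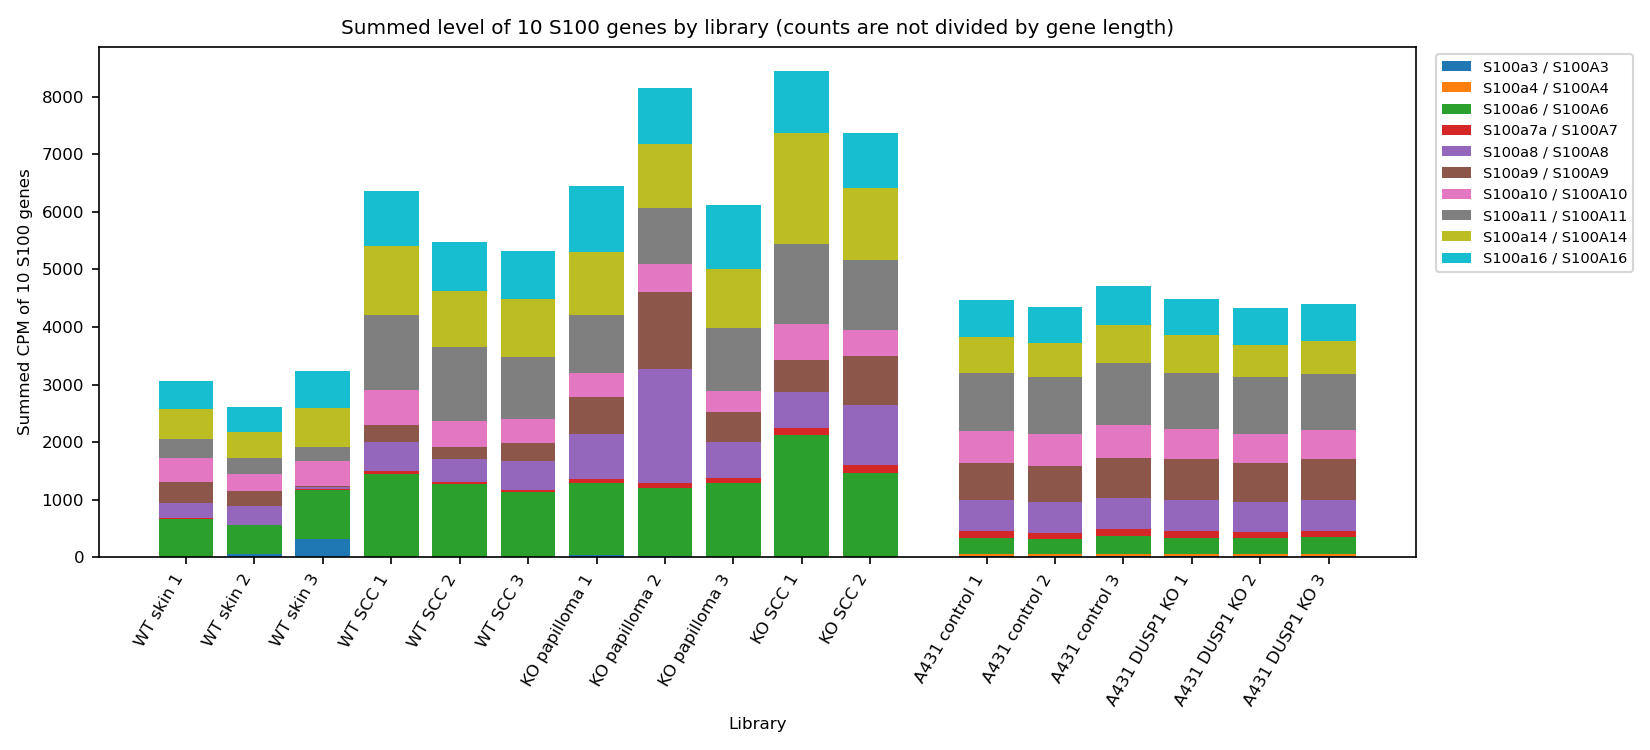
Summed level of the 10 S100 genes in each library, in CPM on the vertical axis, stacked by gene, with the 11 mouse libraries on the left and the 6 A431 libraries on the right. Mouse and A431 tables were scaled separately. The WT skin bars reach 2603 to 3240 CPM and the KO SCC bars 7364 to 8445 CPM, and the purple and brown S100a8 and S100a9 layers are thickest in KO papilloma 2.

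Between genes, levels were compared per kilobase of the longest coding transcript. In WT skin S100a6 stood highest at 921 ± 240 CPM per kb (n = 3). S100a11, S100a10, S100a14, S100a16, S100a8 and S100a9 followed at 561 down to 417 CPM per kb, with spreads that overlap. In WT SCC the order was led by S100a11 at 2398 ± 243 and S100a6 at 1750 ± 223 CPM per kb, followed by S100a14 (1003 ± 115), S100a8 (968 ± 132), S100a16 (774 ± 52.7), S100a10 (717 ± 143) and S100a9 (530 ± 95.9), where S100a14 and S100a8, and S100a16 and S100a10, differed by less than their spread. S100a7a (30.1 ± 2.33), S100a3 (3.31 ± 0.378) and S100a4 (1.52 ± 0.282) were far below them. The places of S100a3 and S100a4 are less certain, since both share exons with Gm42674. In KO papilloma S100a8 had the highest mean, 2322 ± 1527 CPM per kb, but its spread covers S100a11 (2021 ± 141), S100a6 (1700 ± 70.3) and S100a9 (1606 ± 860). In KO SCC S100a11 (2551 ± 246) and S100a6 (2435 ± 646) were again highest and within each other's spread, and S100a7a reached 108 ± 17.5 CPM per kb (n = 2).

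**Figure D2:**
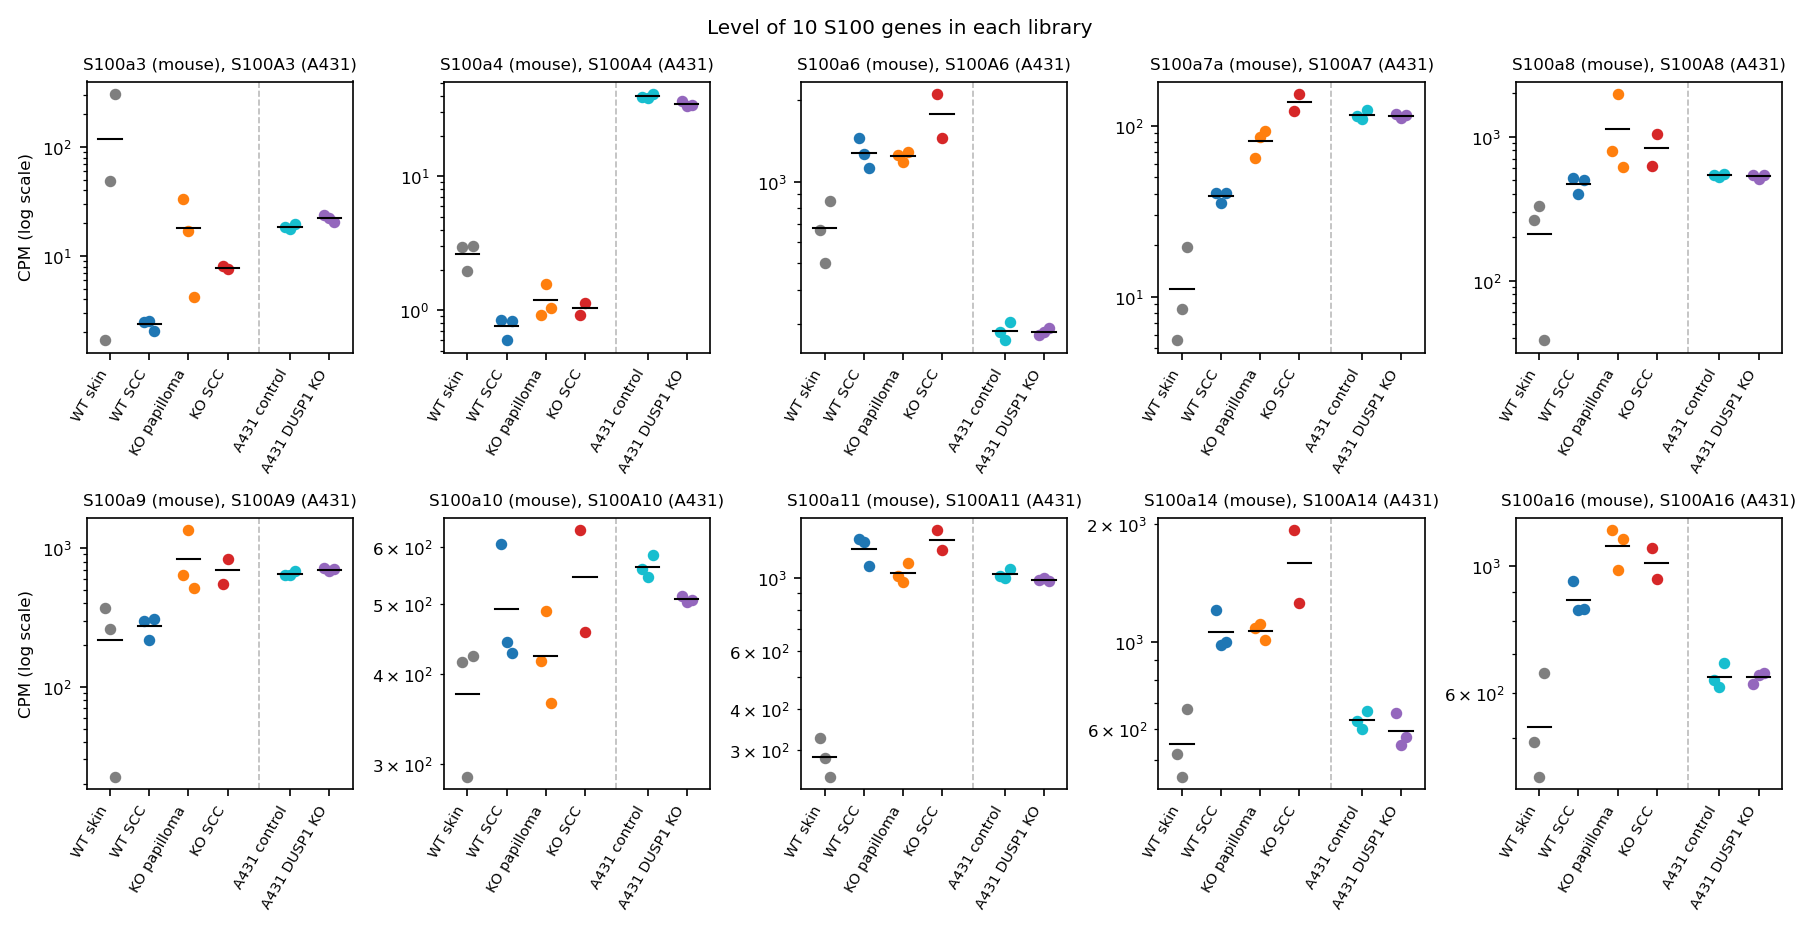
Level of each S100 gene by group, in CPM on log axes that differ between panels. Each point is a library and each bar a group mean. Mouse groups stand left of the dashed line and A431 groups right of it, from separately scaled tables. S100a11 sits at 249 to 327 CPM in WT skin and at 971 to 1392 CPM in the mouse tumours, and S100a7a is highest in the 2 KO SCC libraries.

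WT SCC against WT skin is the comparison in which most of the S100 genes passed the test. S100a6, S100a7a, S100a11, S100a14 and S100a16 rose, S100a3 and S100a4 fell, and S100a8, S100a9 and S100a10 did not pass. That is 5 of 10 higher and 2 of 10 lower, against 16.9% of all tested genes called higher and 23.6% called lower. The median log2 fold change of the 10 was 0.83, against -0.16 over all genes tested. A gene is called here where edgeR's quasi-likelihood test gave an adjusted p under 0.05, with Benjamini-Hochberg adjustment over all genes tested.

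S100a11 is a partner of annexin A1 and takes part in growth control of keratinocytes. Its level was 327, 284 and 249 CPM in the skin libraries and 1307, 1287 and 1083 CPM in WT SCC. The groups stood far apart, with a fold of 4.28 (log2 2.10 ± 0.16 SE, adjusted p = 8.65e-06, edgeR, n = 3 against 3). Anxa1, which encodes that partner, rose as well, from 803 ± 99.96 to 3096 ± 433 CPM (log2 1.95 ± 0.17, adjusted p = 2.13e-05, edgeR).

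S100a7a is the mouse relative of psoriasin, an antimicrobial and chemotactic protein of inflamed epidermis. It read 5.56, 8.45 and 19.4 CPM in skin and 40.3, 35.1 and 40.4 CPM in WT SCC, so that all tumour values lay above all skin values. The fold was 3.45 (log2 1.79 ± 0.36, adjusted p = 0.00283, edgeR), and without WT skin 3 the log2 fold change was 2.47.

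S100a6 (calcyclin), S100a14 and S100a16 were present at high level in skin already. S100a6 read 666, 503 and 853 CPM in skin and 1447, 1268 and 1122 CPM in WT SCC. The groups did not overlap (log2 0.93 ± 0.21, adjusted p = 0.00547, edgeR). S100a14 rose from 549 ± 113 to 1063 ± 122 CPM (log2 0.95 ± 0.20, adjusted p = 0.00318) and S100a16 from 524 ± 114 to 872 ± 59.4 CPM (log2 0.74 ± 0.17, adjusted p = 0.00550). Cacybp, whose protein binds S100a6, rose too (log2 0.58 ± 0.18, adjusted p = 0.0243). Keratinocyte genes moved in the same comparison: of 10 basal keratinocyte genes 8 rose and 1 fell (median log2 1.33), and all 4 activation keratins rose (median log2 3.16). Among the skin libraries, WT skin 3 had the highest S100a6 level but the lowest sum of basal keratinocyte genes. That sum was 6943 CPM, against 11799 and 14812 CPM in WT skin 1 and 2. The part of keratinocyte content in the rises of the S100 genes was not tested.

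S100a3 is a protein of the hair cuticle. It read 1.69, 48.4 and 307 CPM in the 3 skin libraries and 2.47, 2.55 and 2.05 CPM in WT SCC. The groups overlap, since WT skin 1 lay below all 3 tumours, although the test called the gene lower (log2 -5.66 ± 1.40, adjusted p = 0.00822, edgeR). Without WT skin 3 the log2 fold change was -3.40 (adjusted p = 0.0206). The summed level of 21 hair genes moved with it, at 75.3, 411 and 2365 CPM in skin and 51.8 to 58.3 CPM in WT SCC. Of these 21 genes, among them the partner gene Padi3, 17 fell and 0 rose, and Krt34, a hair keratin, was at 0 counts in WT skin 1 and in all WT SCC libraries. The part of hair content in the S100a3 result was not tested.

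S100a4, also called fibroblast-specific protein, binds non-muscle myosin. Its counts were low in every mouse group, at 2.98, 1.97 and 3.00 CPM in skin and 0.842, 0.597 and 0.838 CPM in WT SCC. The WT SCC values came from 29 to 36 counts per library. How reads in the exons shared with Gm42674 were counted is not stated, so the level of S100a4 is uncertain. The groups did not overlap (log2 -1.80 ± 0.35, adjusted p = 0.00204, edgeR). Of 18 fibroblast and matrix genes, 14 fell and 0 rose in the same comparison, and their sum ranged from 8135 to 47503 CPM in skin and from 4448 to 6858 CPM in WT SCC. The part of that tissue makeup in the S100a4 result was not tested. Myh9, which encodes the heavy chain of the myosin that S100a4 binds, rose (log2 1.27 ± 0.20, adjusted p = 0.000651).

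The calprotectin genes had wide values in skin. S100a8 read 264, 329 and 38.5 CPM there and 514, 397 and 501 CPM in WT SCC. All tumours lay above all skin libraries, but the test was not passed (log2 1.16 ± 0.63, adjusted p = 0.161). S100a9 read 368, 259 and 22.5 CPM in skin and 297, 218 and 310 CPM in WT SCC, which overlap (log2 0.35 ± 0.70, adjusted p = 0.712). WT skin 3 was the low library for both, and without it the log2 fold change of S100a9 was -0.18. S100a10, the partner of annexin A2, read 375 ± 75.9 CPM in skin and 491 ± 98.0 CPM in WT SCC (log2 0.39 ± 0.21, adjusted p = 0.159).

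Of the other S100 genes, 5 were tested, and 4 of them fell from skin to WT SCC while 0 rose. S100b, a Schwann and melanocytic cell marker, went from 6.94 ± 2.16 to 0.612 ± 0.205 CPM (log2 -3.49 ± 0.46, adjusted p = 0.000202). S100a1, a protein of striated muscle, fell (log2 -2.15 ± 0.29, adjusted p = 0.000245), as did S100a13 (log2 -1.42 ± 0.19, adjusted p = 0.000193). S100z read 0.0604 to 0.370 CPM in skin and 0 counts in WT SCC, a level near that of single counts (adjusted p = 0.0420). All 10 skeletal muscle genes and 7 of 10 melanocyte and Schwann cell genes fell in the same comparison. Their part in the S100a1 and S100b results was not tested. Among 17 genes of S100 receptors and binding partners, 5 rose and 4 fell. Besides Anxa1, Myh9 and Cacybp, the rises were Bsg, a receptor for the calprotectin pair (log2 0.60), and Anxa2 (log2 0.52). The falls were Anxa6 (log2 -2.09), Tlr4 (log2 -1.18), Ahnak (log2 -0.69) and Cd36 (log2 -4.99).

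**Figure D3:**
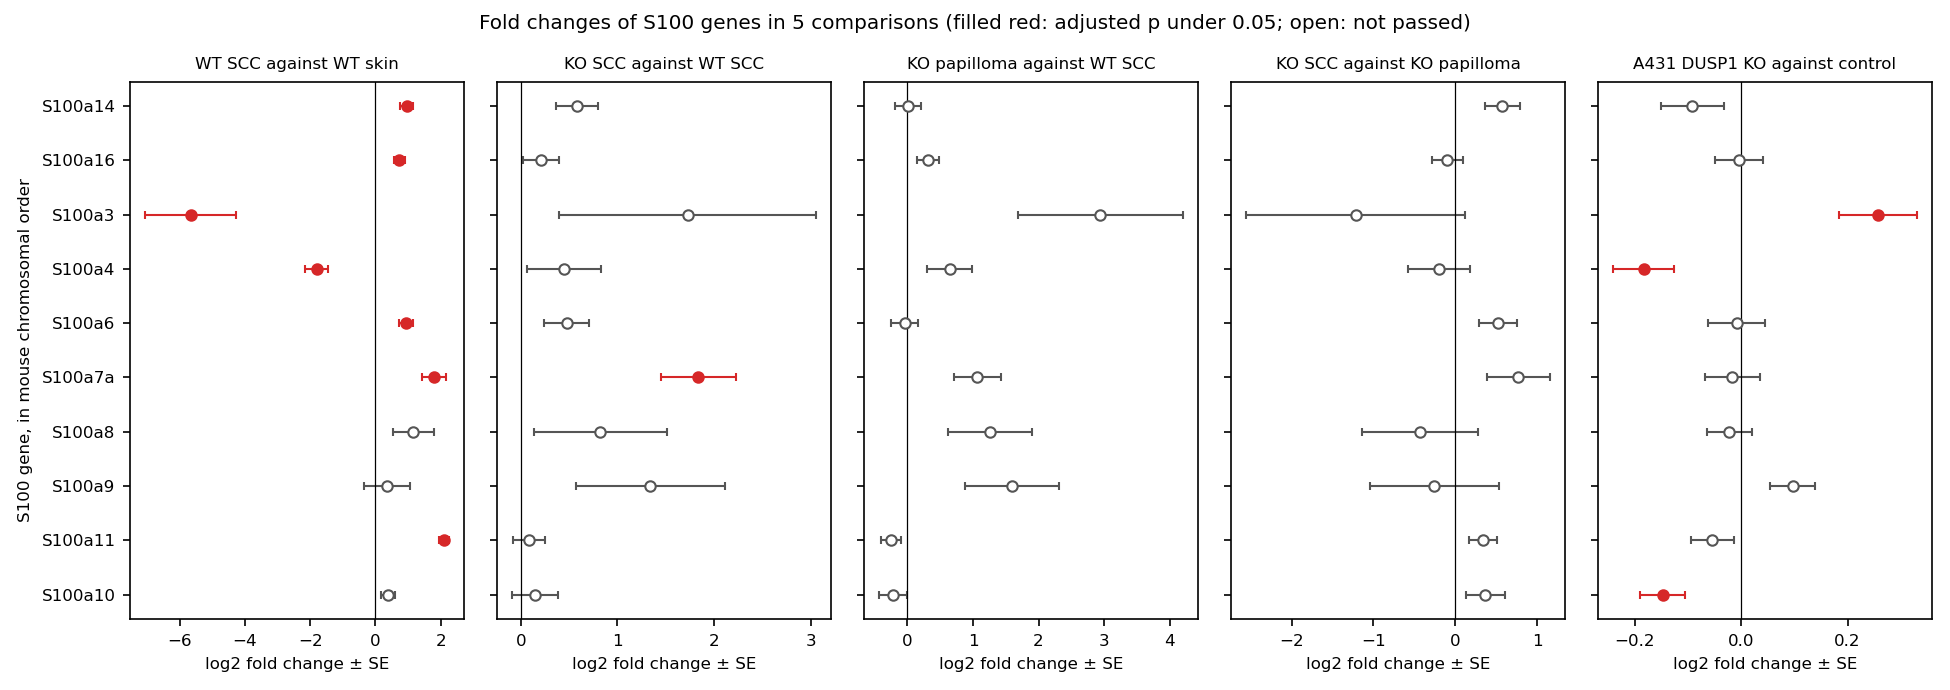
Log2 fold change ± SE of the S100 genes in each of the 5 comparisons, in the order of the genes on mouse chromosome 3, with the human counterpart in the A431 panel. Filled red points have an adjusted p under 0.05 and open points do not, and the horizontal scale differs between panels. In WT SCC against WT skin 7 of 10 points are filled, and in KO SCC against WT SCC only S100a7a is.

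KO SCC against WT SCC compares the same kind of lesion between genotypes. S100a7a rose 3.57-fold, the other 9 genes did not pass the test, and all 10 had a positive log2 fold change, from 0.09 to 1.84. Of 10 genes 1 was thus called higher and 0 lower (edgeR), with 2 of 10 at an unadjusted p under 0.05 and 2 called higher and 0 lower by DESeq2, the second being S100a14. Over all genes 4.48% were called higher and 3.38% lower, so 1 of 10 is not far from the background. The median log2 fold change was 0.53 for the 10 genes and -0.01 over all genes tested.

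S100a7a read 40.3, 35.1 and 40.4 CPM in WT SCC and 122 and 153 CPM in KO SCC. The lowest KO SCC library was thus well above the highest WT SCC library (log2 1.84 ± 0.39, adjusted p = 0.0182, edgeR, n = 2 against 3). The difference lost the threshold on leaving out each of the 5 libraries in turn, with adjusted p from 0.0528 to 0.0912 and log2 fold changes from 1.66 to 1.99. Without KO SCC 2, the only tumour library with Y-linked counts, the log2 fold change was 1.66 (adjusted p = 0.0912).

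S100a9 read 297, 218 and 310 CPM in WT SCC and 555 and 836 CPM in KO SCC. S100a8 read 514, 397 and 501 CPM in WT SCC and 623 and 1043 CPM in KO SCC. Neither gene's groups overlapped, yet neither passed the test: the folds were 2.53 for S100a9 (log2 1.34 ± 0.77, adjusted p = 0.314) and 1.77 for S100a8 (log2 0.82 ± 0.69, adjusted p = 0.508). In a fit of these 2 groups alone, with no skin or papilloma libraries in the estimate of the spread, S100a9 (adjusted p = 0.00350), S100a8 (adjusted p = 0.0295) and S100a3 (adjusted p = 0.00129) passed. Neutrophils carry much S100a8 and S100a9, so their markers are given beside these values. The neutrophil genes Ly6g, Ngp, Elane and Camp were each at 0.805 CPM or less in every mouse library. Other genes of the same list were detected in all of them, Cxcr2 at 3.01 to 28.6 CPM and Csf3r at 5.58 to 21.3 CPM. The sum of the neutrophil list without Ltf was 117 to 125 CPM in WT SCC and 84.2 to 116 CPM in KO SCC. With Ltf it was 117 to 126 CPM in WT SCC and 86.3 and 1060 CPM in KO SCC. This sum is not specific to neutrophils. In A431 cells, freed of mouse cells, the human list summed to 129 to 140 CPM in control and 37.9 to 44.0 CPM in DUSP1 KO. The members of the mouse list did not all go one way. Cxcr2, a chemokine receptor of neutrophils, read 16.8 to 18.9 CPM in WT SCC and 22.9 and 27.2 CPM in KO SCC, and Trem1, Retnlg and Mmp8 also lay higher in KO SCC without overlap, with means of 3.21, 1.32 and 0.673 CPM against 1.96, 0.612 and 0.413 CPM. Csf3r and Il1r2 lay lower in KO SCC without overlap, with means of 12.2 and 14.7 CPM against 20.1 and 23.4 CPM. None of these 6 genes was called, and the median log2 fold change of the list was 0.17. Ltf, which glandular epithelium also makes, stood at 944 CPM in KO SCC 2 and at 0.123 to 71.0 CPM in the other 10 mouse libraries. Of 20 tested neutrophil genes 0 were called by edgeR, 3 had an unadjusted p under 0.05 and 1 was called lower by DESeq2. The sum of 18 monocyte and macrophage genes was 720.0 to 899 CPM in WT SCC and 430.6 to 547 CPM in KO SCC, with 0 of them higher and 1 lower. The part of these cells in the S100a8 and S100a9 values was not tested.

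The remaining S100 genes did not pass the test. S100a14 read 1203, 983 and 1002 CPM in WT SCC and 1922 and 1257 CPM in KO SCC, with KO SCC 1 as the high library (log2 0.58 ± 0.22, adjusted p = 0.125). S100a6 read 2114 and 1446 CPM in KO SCC, the second of which lay within the WT SCC range (log2 0.48 ± 0.23, adjusted p = 0.233). S100a16, S100a10 and S100a11 had log2 fold changes of 0.21, 0.15 and 0.09. S100a3 stood at 8.02 and 7.60 CPM in KO SCC against 2.05 to 2.55 CPM in WT SCC (log2 1.73 ± 1.33, adjusted p = 0.465), and S100a4 at 0.923 and 1.14 CPM against 0.597 to 0.842 CPM (log2 0.45 ± 0.38, adjusted p = 0.517). The hair gene sums beside the S100a3 values were 62.7 and 54.7 CPM in KO SCC and 51.8 to 58.3 CPM in WT SCC, and these overlapped. Most of the sum in WT SCC came from Selenbp1, Foxn1, Padi3 and Msx2, with means of 20.8, 14.4, 10.2 and 5.38 CPM. Of the 21 hair genes Krtap13 was called higher and Selenbp1 lower. The median log2 fold change of the list was 1.25, with many of its genes near single counts. The part of hair content in the S100a3 values was not tested. Without KO SCC 1 the log2 fold changes of S100a10 and S100a11 were -0.10 and -0.01.

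Among the 17 receptor and partner genes, 3 rose and 1 fell. Anxa1 read 3592, 2899 and 2796 CPM in WT SCC and 7898 and 6891 CPM in KO SCC, a fold of 2.39 with no overlap (log2 1.26 ± 0.18, adjusted p = 0.00360, edgeR). Its S100 partner S100a11 differed by 1.06-fold in the same libraries (adjusted p = 0.801). Tlr4, the receptor that the calprotectin pair activates, went from 5.91 ± 0.621 to 11.97 ± 0.808 CPM (log2 1.02 ± 0.19, adjusted p = 0.0116). Cacybp rose (log2 0.77 ± 0.20, adjusted p = 0.0411), and the gene that fell was S100pbp, which encodes an S100P-binding protein (log2 -0.64 ± 0.17, adjusted p = 0.0434).

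The S100 genes were set beside their neighbours of the epidermal differentiation complex. Of 45 tested envelope genes 27 rose and 0 fell by edgeR (30 and 0 by DESeq2), with a median log2 fold change of 1.71. Other comparisons differed. In WT SCC against WT skin 7 of the 45 rose and 20 fell, with a median log2 fold change of -0.72. In KO SCC against KO papilloma 0 rose and 3 fell, and in A431 9 of 31 tested envelope genes rose and 6 fell (edgeR). Crct1, a cysteine-rich envelope gene, went from 229 ± 35.8 to 1050 ± 16.2 CPM (log2 2.19 ± 0.19, adjusted p = 0.000232). The small proline-rich and late cornified envelope genes have near-identical copies, so their single counts are uncertain. A list of 26 genes of the IL-17 and IL-36 response had 7 higher and 1 lower. It includes known inducers of S100a7a, S100a8 and S100a9 in keratinocytes. Il17a, Il17f, Il1a and Il1b of this list were not called. Il17c was called higher, at 0.0193 ± 0.0335 CPM in WT SCC and 0.794 ± 0.633 CPM in KO SCC. In A431, 6 of 15 tested genes of the list rose and 3 fell. Il1f6, which encodes IL-36 alpha, went from 32.7 ± 7.31 to 299 ± 79.1 CPM (log2 3.20 ± 0.29, adjusted p = 0.000279), and Il1f8, which encodes IL-36 beta, from 54.6 ± 6.41 to 127 ± 15.6 CPM (log2 1.22 ± 0.22, adjusted p = 0.00903). The gene of that list that fell was Saa3, from 24.5 ± 12.2 to 0.688 ± 0.361 CPM (log2 -5.14 ± 1.03, adjusted p = 0.0152, edgeR). These lists were chosen with earlier results of these data known, so their direction is not independent evidence.

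KO papilloma against WT SCC differs in both lesion and genotype, which cannot be told apart. Of the 10 S100 genes 0 were called by edgeR, 3 had an unadjusted p under 0.05 (S100a3, S100a7a and S100a9) and 1 was called higher by DESeq2 (S100a7a). Over all genes 3.49% were called higher and 1.77% lower. The median log2 fold change of the 10 was 0.48, against 0.02 over all genes.

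S100a7a read 64.7, 85.3 and 92.7 CPM in KO papilloma, all above the 35.1 to 40.4 CPM of WT SCC (log2 1.07 ± 0.35, adjusted p = 0.117, edgeR, n = 3 against 3). S100a9 read 636, 1344 and 519 CPM, also all above WT SCC (log2 1.60 ± 0.72, adjusted p = 0.252). S100a8 read 792, 1980 and 614 CPM (log2 1.26 ± 0.64, adjusted p = 0.308). KO papilloma 2 was the high library for both calprotectin genes, and without it the log2 fold changes were 1.07 for S100a9 and 0.58 for S100a8. S100a3 read 33.2, 17.1 and 4.17 CPM (log2 2.94 ± 1.26, adjusted p = 0.229), in the same order as the hair gene sums of 262, 119 and 64.9 CPM. Without KO papilloma 1 the log2 fold change of S100a3 was 2.17. S100a6, S100a14, S100a10, S100a11, S100a16 and S100a4 had log2 fold changes from -0.25 to 0.65. In this comparison 29 of 45 envelope genes rose and 0 fell, and of the 17 receptor and partner genes 0 were called by edgeR, 3 had an unadjusted p under 0.05 and 1 was called lower by DESeq2.

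KO SCC against KO papilloma compares lesions of the same labelled genotype. Of the 10 S100 genes 0 were called by edgeR or DESeq2, with 2 at an unadjusted p under 0.05 (S100a6 and S100a14). Over all genes 0.0492% were called higher and 0.237% lower. Signs were split, 5 positive and 5 negative, with a median log2 fold change of 0.12 against -0.05 over all genes.

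S100a7a was higher in both KO SCC libraries (122 and 153 CPM) than in the papillomas (64.7 to 92.7 CPM), without passing the test (log2 0.77 ± 0.39, adjusted p = 0.362). S100a14 (log2 0.57 ± 0.22, adjusted p = 0.25), S100a6 (log2 0.52 ± 0.23, adjusted p = 0.312) and S100a11 (log2 0.34 ± 0.17, adjusted p = 0.356) also had groups that did not overlap. S100a8 and S100a9 overlapped, with log2 fold changes of -0.44 ± 0.71 and -0.26 ± 0.79, and both were positive without KO papilloma 2 (0.24 and 0.27). Of the 17 receptor and partner genes, Anxa1 alone was called (log2 1.13 ± 0.18, adjusted p = 0.0366), where DESeq2 called 2 higher. WT SCC, KO SCC and KO papilloma each serve in more than 1 of the mouse comparisons, so these are not separate tests of the same genes.

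In A431, S100A3 rose and S100A4 and S100A10 fell with the DUSP1 guide, each by at most 1.20-fold, and the other 7 genes did not pass the test. That is 1 of 10 higher and 2 of 10 lower, against 23.1% and 24.5% over all genes, so the calls were no more frequent than in the background. The median log2 fold change was -0.02 for the 10 genes and 0.01 over all genes.

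S100A3 read 18.5, 17.7 and 19.6 CPM in control and 24.0, 22.1 and 20.5 CPM in DUSP1 KO (log2 0.26 ± 0.07, adjusted p = 0.00739, edgeR, n = 3 against 3). The groups did not overlap, but without control 2 the adjusted p was 0.0520. S100A4 read 38.9, 38.6 and 41.3 CPM in control and 36.7, 33.6 and 34.4 CPM in DUSP1 KO (log2 -0.18 ± 0.06, adjusted p = 0.0137). Its call was lost without control 3, KO 2 or KO 3, with adjusted p of 0.0756, 0.0817 and 0.0514. S100A10 read 558, 544 and 584 CPM in control and 513, 503 and 506 CPM in DUSP1 KO (log2 -0.15 ± 0.04, adjusted p = 0.00799), and it stayed past the threshold with any library left out.

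Both calprotectin genes were detected in all A431 libraries. S100A8 read 541, 524 and 547 CPM in control and 541, 508 and 538 CPM in DUSP1 KO (log2 -0.02 ± 0.04, adjusted p = 0.7001). S100A9 read 645, 639 and 680 CPM in control and 717, 681 and 702 CPM in DUSP1 KO, with no overlap but an adjusted p of 0.0685 (log2 0.10 ± 0.04). S100A7 read 116 ± 7.19 CPM in control and 115 ± 3.56 CPM in DUSP1 KO (log2 -0.02 ± 0.05, adjusted p = 0.815). Its near-identical copy S100A7A stood at 25.1 to 27.8 CPM, and reads that match both cannot be placed with certainty. S100A6, S100A11 and S100A16 had log2 fold changes of -0.01, -0.05 and -0.0043. S100A14 had a log2 fold change of -0.09 (adjusted p = 0.214), which without KO 1 was -0.18 (adjusted p = 0.000650).

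Outside the 10 genes, 6 other human S100 genes were tested, of which 2 rose and 1 fell. S100A2, an S100 gene of basal keratinocytes, read 1164, 1067 and 1327 CPM in control and 1537, 1542 and 1689 CPM in DUSP1 KO, with no overlap (log2 0.42 ± 0.06, adjusted p = 2.29e-05, edgeR). S100A12, another RAGE ligand, rose from 1.95 ± 0.0600 to 3.30 ± 0.797 CPM (log2 0.76 ± 0.18, adjusted p = 0.00219), and S100P fell (log2 -0.25 ± 0.07, adjusted p = 0.00582). Of 16 tested receptor and partner genes 3 rose and 8 fell. MCAM, an adhesion protein that binds the S100A8 and S100A9 complex, went from 2.20 ± 0.293 to 15.3 ± 0.425 CPM (log2 2.80 ± 0.11, adjusted p = 1.61e-12), and BSG rose (log2 0.38). ALCAM (log2 -0.57), CD36 (log2 -0.65), ANXA11 (log2 -0.14) and S100PBP (log2 -0.18) were lower. So were partners of S100 genes that fell, ANXA2 for S100A10 (log2 -0.23 ± 0.04, adjusted p = 0.000105, edgeR) and MYH9 for S100A4 (log2 -0.34 ± 0.05, adjusted p = 4.26e-05, edgeR). Partners of S100 genes that were not called fell as well, ANXA1 for S100A11 (log2 -0.26 ± 0.05) and CACYBP for S100A6 (log2 -0.28 ± 0.05).

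Across the 11 mouse libraries S100a8 and S100a9 went together, with a Pearson's r of log2 CPM of 0.97, and S100a6 went with S100a14 (r = 0.99). S100a3 had a negative r with every other S100 gene of the set except S100a4 (r = 0.51). These values are descriptions over libraries that fall into 4 groups and share their scaling. Outside the set, the genes most like S100a3 were the hair keratins Krt34 (r = 0.97) and Krt36 (r = 0.96), followed by Gm3233 (r = 0.96). S100a8 was closest to Galnt7 (r = 0.96), BC117090 and the envelope gene Sprr2i (r = 0.94 each). S100a9 was closest to Gm5416 (r = 0.96), Acsbg2 and the envelope gene Sprr2k (r = 0.93 each). S100a7a was closest to Neto2, Ccnyl1 and Lyar (r = 0.98 each), and S100a11 to Phlda1 (r = 0.997), Ada and Duoxa1 (r = 0.99 each).

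**Figure D4:**
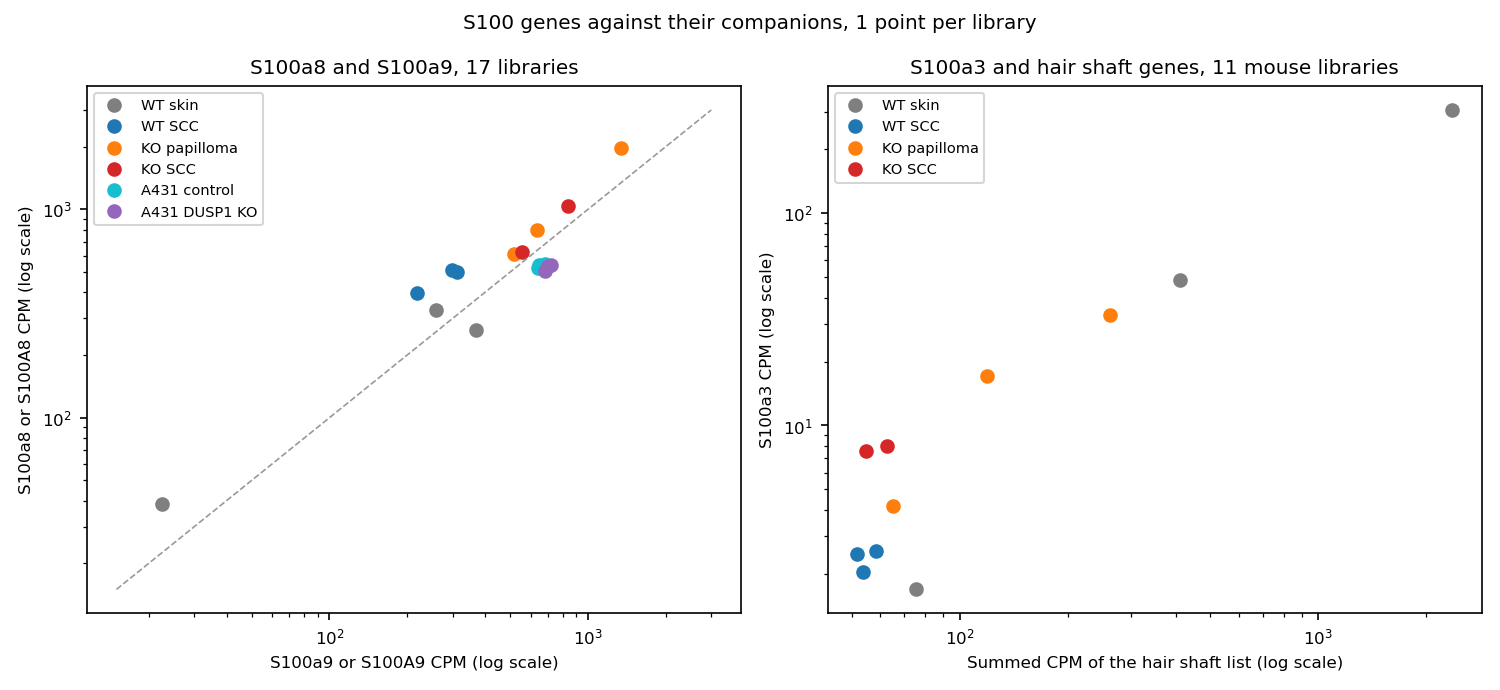
Left, S100a8 against S100a9 level in each of 17 libraries, in CPM on log axes, where the dashed line marks equal levels. Right, S100a3 level against the summed level of 21 hair genes in the 11 mouse libraries, both in CPM on log axes. Neither axis is divided by gene length. WT SCC points lie farther above the dashed line than KO papilloma and KO SCC points, A431 points lie below it, and S100a3 is highest in WT skin 3, where the hair sum is 2365 CPM.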

How the data were processed

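RNA was measured in 17 libraries made with a stranded mRNA kit, per the labels' protocols. The authors deposited whole-number counts per gene, without normalization, as a mouse table and an A431 table. HISAT2, StringTie and DESeq are named, with the builds mm10 and hg38, per the submitters' processing notes, and no versions are given. No source states the counting rule, strand setting or annotation, so overlapping, antisense and near-identical genes are uncertain. Features without a name (1456 of 55988 in mouse, 223 of 58958 in A431) held 0.115 to 0.496% of mouse counts and 0.190 to 0.211% of A431 counts and were left out.

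All 11 mouse libraries entered a single fit of 4 groups, and the 6 A431 libraries apart, with edgeR 4.0.16 in R 4.3.3 (default filter on low counts, TMM, quasi-likelihood test, two-sided, Benjamini-Hochberg over all genes tested, threshold 0.05). Levels are CPM on TMM-scaled library sizes, and SE is the fitted log2 fold change over the square root of F. TMM factors were 0.816 to 1.24 in mouse and 0.976 to 1.02 in A431. The scripts were tested on simulated counts. The S100 genes and all gene lists were chosen with earlier results of these data known. Genes named were the 10 S100 genes, other S100 genes, Dusp1 and up to 3 called genes of smallest p per list. Named too were the 3 genes most like each S100 gene. Other receptor and partner genes, Saa3 and the genes picked from the 3 most alike were named after their values were seen. Alternatives were RLE factors, no filter, DESeq2 1.42.0, the replicate number as a block, a fit of only the groups compared, library sizes without the S100 genes, and leaving out each library. Motifs were searched in RefSeq windows of 250 bases before each start (GRCm38.p6), and gene positions were taken from GENCODE M21.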

Additional observations from a re-analysis of the deposited data

Results flagged for a closer look

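S100a4 and its human counterpart S100A4 had opposite signs under loss of DUSP1 by label. S100a4 was higher in every KO SCC library than in every WT SCC library, with a log2 fold change of 0.45 (adjusted p = 0.517, edgeR), from 29 to 46 counts per library. S100A4 was lower in every A431 DUSP1 KO library than in every control library, with a log2 fold change of -0.18 (adjusted p = 0.0137, edgeR). The difference between mouse and A431 was not tested, since the tables are fitted apart. S100a4 shares 60.6% of its longest coding transcript with Gm42674, so its mouse counts are uncertain.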

How the results depend on the processing

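The 10 S100 genes gave 50 values of gene and comparison. Of 530 recomputed values, 486 kept their direction and side of the threshold, 9 lost the threshold, 15 gained it and 20 changed sign, all 20 in genes that were not called. In WT SCC against WT skin all 7 calls held under every alternative run.

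S100 genes called in KO SCC against WT SCC numbered 2 without a filter, 2 with DESeq2, 4 in a fit of only the 2 groups and 0 with any library left out. In KO papilloma against WT SCC they numbered 4, 1 and 3 under the first 3 of these. Genes called over all genes, 1760 in KO SCC against WT SCC, were 3466 with DESeq2, 4164 with only the 2 groups and 302 to 974 with a library left out. In KO papilloma against WT SCC they were 1854 without a filter, 2232 with DESeq2, 1797 with only the 2 groups and 478 to 1100 with a library left out. In KO SCC against KO papilloma they were 611 without a filter, 941 with DESeq2 and 0 to 84 with a library left out. With the replicate block, genes called were 795 in KO SCC against WT SCC and 1 in KO SCC against KO papilloma. Libraries with the same number in their titles did not deviate together (r of -0.411 to 0.166 in mouse and -0.028 to 0.007 in A431). With so few libraries per group this check cannot exclude pairing. The block changed no call of an S100 gene. Runs with a library left out also hold fewer samples. What caused these changes in the number of genes called was not tested.

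Signs changed in these log2 fold changes under some of the alternatives. The ranges are over all alternatives, among them each library left out. S100a9 ranged from -0.18 to 0.97 in WT SCC against WT skin. S100a10 ranged from -0.10 to 0.36 and S100a11 from -0.010 to 0.18 in KO SCC against WT SCC. S100a6 ranged from -0.13 to 0.055 and S100a14 from -0.044 to 0.11 in KO papilloma against WT SCC. S100a4 ranged from -0.36 to 0.063, S100a8 from -0.86 to 0.24 and S100a9 from -0.59 to 0.27 in KO SCC against KO papilloma. In A431, S100A6 ranged from -0.071 to 0.048, S100A7 from -0.064 to 0.029, S100A8 from -0.048 to 0.014 and S100A16 from -0.043 to 0.031. Leaving out a KO SCC library leaves 1, assumed to vary like the other groups.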

Other observations

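The ratio of S100a8 to S100a9 counts within a library, which the length of the genes and the scaling of the library do not change between groups, was looked at after the levels were seen. It was 1.61 to 1.82 in WT SCC, 1.18 to 1.47 in KO papilloma and 1.12 to 1.25 in KO SCC, so that both KO groups lay below WT SCC without overlap. In skin it ranged from 0.718 to 1.71. In A431 the ratio was 0.804 to 0.838 in control and 0.745 to 0.766 in DUSP1 KO, again without overlap. Exact two-sided permutation tests gave p = 0.1 for KO SCC against WT SCC, KO papilloma against WT SCC and A431 DUSP1 KO against control, which is the smallest p these designs allow two-sided, and 0.167 each after adjustment over the 5 comparisons. The mouse comparisons share the WT SCC libraries.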
